A study of Mus musculus with 6 samples.

Results

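Genes with roles in the G2 phase and mitosis were examined in NIH/3T3 cells, an immortalized line of mouse fibroblasts, after silencing of Aldoa, which encodes the glycolytic enzyme aldolase A. The genes were taken by symbol from a list of 54 cyclins, mitotic kinases, spindle checkpoint, chromosomal passenger, kinetochore, kinesin, anaphase, cytokinesis and condensin genes. Of these, 52 had a row in the expression table of 18001 genes, and Bub3 and Prc1 had none. One group of cultures had received pooled siRNAs against Aldoa (siAldoa) and the other control siRNAs without a target (siCtrl), in medium with fetal calf serum and for 48 h in both groups. Each group has 3 replicates, from which poly(A) RNA was sequenced, so all values are averages over cells in all phases of the cell cycle. A lower level of a mitotic mRNA in such bulk samples can come from fewer cells in G2 and mitosis or from less mRNA per cell, and these cannot be told apart here.

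As background, cells that have replicated their DNA enter mitosis when CDK1, bound to a cyclin, phosphorylates its many substrates. Chromosomes are compacted by condensin, attached through kinetochores to spindle microtubules and monitored by the spindle checkpoint, until the anaphase-promoting complex (APC/C) marks securin and the B cyclins for destruction. The genes of this programme are transcribed late in the cell cycle by the MuvB core complex together with B-MYB and FOXM1, and are often used as markers of dividing cells.

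Levels are given as CPM, the reads of a gene scaled by the authors to an effective library size, which are relative to each library's mRNA and do not measure mRNA per cell. The libraries held 3692341 to 3771129 reads, so that 3 reads correspond to 0.786 to 0.822 CPM, and the called mitotic genes described here rested on 50 to 948 reads per library. Aldoa was at 522, 536 and 545 CPM in siCtrl replicates 1, 2 and 3 and at 62.9, 69.2 and 72.0 CPM in siAldoa replicates 1, 2 and 3, which is 12.7% of the control (log2 fold change -2.96, limma adjusted p = 1.3e-21). The fibroblast markers Col1a1, Col1a2, Vim, Fn1, Thy1, Pdgfrb, S100a4 and Fbln2 were all measured and summed to 13774 to 14367 CPM in siCtrl and 11608 to 12314 CPM in siAldoa, with 4 of the 8 called lower and 3 higher. Markers of epithelial cells summed to 6.57 to 10.4 CPM in siCtrl and 1.83 to 4.28 CPM in siAldoa, those of leukocytes and endothelial cells reached at most 6.57 CPM and Des, a muscle marker, 5.61 CPM in a library, while Epcam, Cd3e, Kdr, Myod1 and Myog had no row. In each group replicate 3 stood apart from replicates 1 and 2 (chi-square per degree of freedom 1.12 between replicates 1 and 2 of siCtrl and 1.11 in siAldoa, against 2.07 to 3.24 for pairs with replicate 3), and the spike-in RNA had been added in the lysis buffer for replicate 1 and after extraction for replicates 2 and 3.

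Part of the mitotic genes had lower mRNA levels after Aldoa silencing. Of the 52 genes, 19 were lower and 1 was higher in siAldoa at an adjusted p under 0.05 (two-sided limma test on log2(CPM + 1), with Benjamini-Hochberg adjustment over 18001 genes), and 32 did not pass. The same rule called 10.0% of all 18001 genes lower and 10.4% higher. The share was also taken over the 8464 genes whose mean CPM lay within the range of the mitotic genes (17.2 to 438 CPM), where it was 17.5% for lower and 17.0% for higher. Among the mitotic genes the shares were 36.5% and 1.92%. The genes with a call for lower expression had 62.9% to 90.9% of the siCtrl mean, and Spc24, a kinetochore gene, was the lowest of them.

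Without a test, every siAldoa library lay below every siCtrl library for 28 of the 52 genes (53.8%) and above for 1, Hmmr, while the groups overlapped for 23. The shares over all genes were 17.1% for below and 16.7% for above, and within the same range of mean CPM they were 24.6% and 23.8%. The median log2 fold change of the 52 genes was -0.12, against -0.0023 over all genes. Their levels added up to 6195, 6172 and 6301 CPM in siCtrl and 5801, 5766 and 5754 CPM in siAldoa, or 92.8% of the control. When replicates 1 and 2 of each group were averaged and counted as 1 sample, an alternative chosen after seeing the data, 15 genes were lower and 0 higher. On the recovered reads, edgeR's quasi-likelihood test called 20 lower and 1 higher, and DESeq2 called 10 lower and 0 higher. Leaving out 1 library at a time left 12 to 14 calls, the fewest without siAldoa replicate 1, and 10 of the 20 genes passed whichever single library was left out. With scaling to total reads 13 genes were lower and 1 higher, and Ccnb2, Espl1, Kif20b, Kif23, Nuf2 and Racgap1 no longer passed (limma adjusted p = 0.051 to 0.091). Quantile normalization ended the calls of Cdk1 and Racgap1 (adjusted p = 0.11 and 0.13), and a pseudocount of 0.1 those of Espl1 and Nuf2 (0.056 and 0.055).

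**Figure D1:**
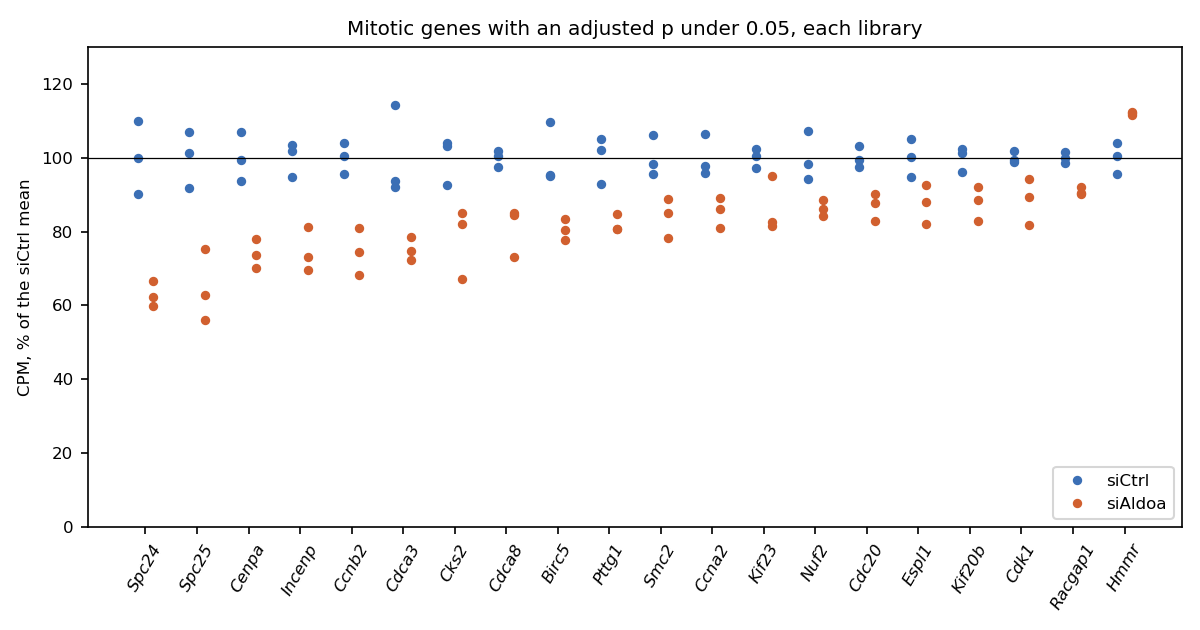
CPM of each library as a percentage of the siCtrl mean (y axis) for the 20 mitotic genes with an adjusted p under 0.05, ordered by log2 fold change from left to right. Each point is 1 of 3 libraries of siCtrl (blue) or siAldoa (orange). The groups do not overlap for any of them, the siAldoa mean lies at 62.9% of the siCtrl mean for Spc24 and at 90.9% for Racgap1, and Hmmr alone lies above its control.

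**Figure D2:**
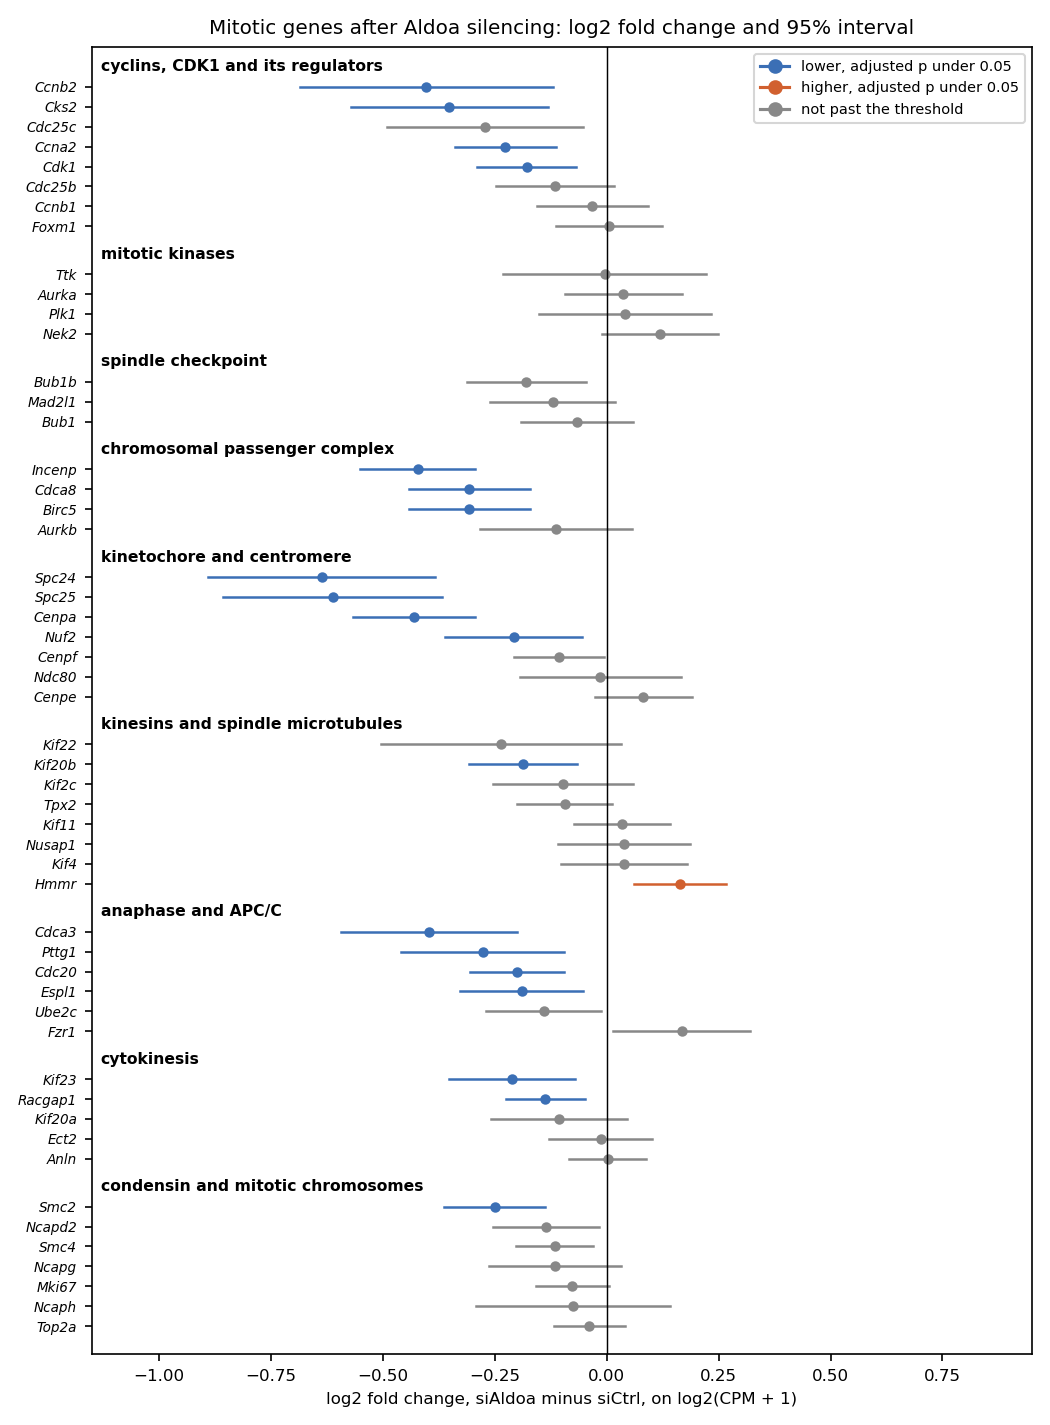
Log2 fold change on log2(CPM + 1) (points) with its 95% interval from limma (lines) for the 52 mitotic genes, grouped by role. Blue and orange mark genes called lower and higher, grey those that did not pass. The kinetochore genes Spc24 and Spc25 have the lowest values, and the 4 mitotic kinases lie between -0.0045 and 0.12.

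Promoters of mitotic genes carry short elements read by this late programme: the cell cycle genes homology region (CHR), which binds the MuvB core, and the CCAAT box, bound by NF-Y. RefSeq promoter sequences (GRCm38.p6, 250 bases before to 50 from the gene start) were matched for 43 of the 52 genes, and 9 had no entry. The CHR (TTTGAA or TTCGAA on either strand) stood in 32 of the 43 (74.4%), against 21.7% of 27025 genes and 17.4% of the 11192 genes that are also in the expression table. The CCAAT box (CCAAT on either strand, which can share bases with a CHR as in Cdca8) stood in 33 (76.7%), against 41.1% of all genes, and 22 held at least 2 of them (51.2%, against 13.3%). Both elements were found in 28 promoters (65.1%, against 9.65%) and neither in 6. A CHR lay within 50 bases of the start in 29 of the mitotic genes and in 6.12% of all genes.

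The letters were about as frequent among the genes called lower as among the others. A CHR was present in 12 of the 16 promoters of genes called lower (75.0%) and in 20 of the other 27 (74.1%), and a CCAAT box in 12 (75.0%) and 21 (77.8%). To show the arrangement, 140 bases (110 before to 30 from the start) are printed for genes with low fold changes that had an entry, for the B cyclin and CDK1 genes, and for Hmmr, which was added after its values were seen as the gene called higher. Capitals mark CHR and CCAAT letters on either strand, and coordinates are those of GRCm38.p6. The CHR of Cdca3 begins where its printed stretch ends.
Spc25, chr2:69206184-69206323 (minus strand): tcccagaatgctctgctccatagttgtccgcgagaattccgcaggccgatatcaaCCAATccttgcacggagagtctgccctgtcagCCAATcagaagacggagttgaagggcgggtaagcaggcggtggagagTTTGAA
Cenpa, chr5:30666776-30666915 (plus strand): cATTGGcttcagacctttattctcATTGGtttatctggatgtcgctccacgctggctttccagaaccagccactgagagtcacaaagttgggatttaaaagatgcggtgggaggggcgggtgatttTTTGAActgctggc
Ccnb2, chr9:70421525-70421664 (minus strand): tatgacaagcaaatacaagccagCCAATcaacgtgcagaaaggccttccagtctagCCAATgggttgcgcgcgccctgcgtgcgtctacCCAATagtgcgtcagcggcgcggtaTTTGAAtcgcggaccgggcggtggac
Cdca3, chr6:124830066-124830205 (plus strand): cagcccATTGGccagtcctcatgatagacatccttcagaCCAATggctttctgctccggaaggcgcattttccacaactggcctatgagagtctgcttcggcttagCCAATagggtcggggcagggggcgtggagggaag
Cks2, chr13:51645122-51645261 (plus strand): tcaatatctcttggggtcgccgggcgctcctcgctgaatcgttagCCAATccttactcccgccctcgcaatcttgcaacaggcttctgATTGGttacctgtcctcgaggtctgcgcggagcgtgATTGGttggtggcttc
Cdca8, chr4:124936888-124937027 (minus strand): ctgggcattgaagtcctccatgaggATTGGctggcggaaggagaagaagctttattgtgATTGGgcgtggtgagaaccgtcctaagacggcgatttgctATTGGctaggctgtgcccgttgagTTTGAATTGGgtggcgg
Ccnb1, chr13:100786457-100786596 (minus strand): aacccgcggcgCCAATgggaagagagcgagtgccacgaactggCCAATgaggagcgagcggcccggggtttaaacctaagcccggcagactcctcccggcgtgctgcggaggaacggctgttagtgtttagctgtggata
Cdk1, chr10:69352883-69353022 (minus strand): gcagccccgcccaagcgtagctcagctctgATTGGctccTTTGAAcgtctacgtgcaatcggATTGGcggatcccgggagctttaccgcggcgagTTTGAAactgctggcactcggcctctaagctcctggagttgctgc
Hmmr, chr11:40733408-40733547 (minus strand): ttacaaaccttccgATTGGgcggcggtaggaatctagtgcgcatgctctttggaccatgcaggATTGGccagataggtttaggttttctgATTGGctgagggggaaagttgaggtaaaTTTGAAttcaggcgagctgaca

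Spc25, the gene with the lowest value among these, and Ccnb2 each hold CCAAT boxes before a CHR close to the start, and so does Hmmr, whose level went the other way. Ccnb1, which did not pass the test, has CCAAT boxes and neither TTTGAA nor TTCGAA within its window, whereas Ccnb2 has CCAAT boxes and TTTGAA. Other forms of the CHR were not searched, so Ccnb1 was not shown to lack the element. Cks2 has CCAAT boxes without these CHR letters and was called lower. The match of letters is a description and does not show binding in these cells.

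**Figure D3:**
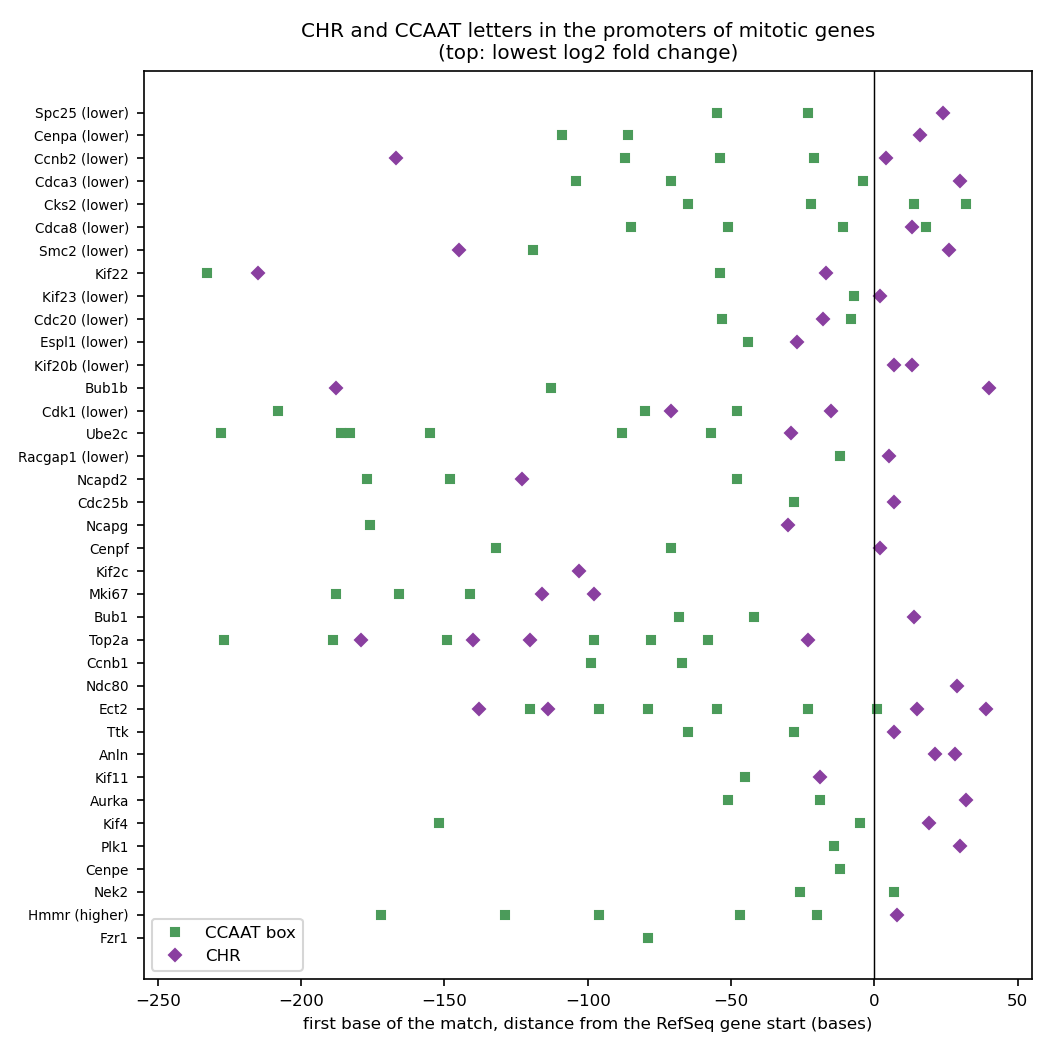
Position of CHR (purple diamonds) and CCAAT (green squares) letters relative to the RefSeq gene start (x axis, bases, minus values lie before the start) in the 37 mitotic gene promoters with at least 1 match, ordered from the lowest log2 fold change at the top to the highest at the bottom. CHR letters lie mainly within 50 bases of the start and CCAAT boxes mostly before it, in genes called lower and in those that were not.

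Among the cyclins, CDK1 and its regulators, 4 of 8 genes were lower and 0 higher, with a median log2 fold change of -0.20. Of all genes in the mitotic genes' range of mean CPM, 17.5% were lower and 17.0% higher. Ccna2 encodes cyclin A2, which works in S phase and G2. Ccna2 was at 184, 166 and 169 CPM in siCtrl replicates 1, 2 and 3 and at 154, 140.0 and 149 CPM in siAldoa replicates 1, 2 and 3. It fell to 85.4% of the control (log2 fold change -0.23, standard error 0.055, limma adjusted p = 0.0039). Cdk1 had 188, 187 and 193 CPM in the siCtrl libraries and 169, 178 and 154 CPM in the siAldoa libraries, where siAldoa replicate 3 was the lowest library and the groups did not overlap (log2 fold change -0.18, standard error 0.053, limma adjusted p = 0.018). Cks2 had 38.6, 38.3 and 34.4 CPM in the siCtrl libraries and 30.5, 31.5 and 24.9 CPM in the siAldoa libraries, or 78.1% of the control, for this small protein that docks CDK1 to its substrates (log2 fold change -0.35, standard error 0.11, limma adjusted p = 0.02). Annotated exons of Ccna2 share 510 bases with those of Exosc9 on the other strand, and the use of strand in the counting is not given in the sources used here.

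Of the B cyclins, Ccnb2 was called lower and Ccnb1 was not. Ccnb2 was at 18.9, 20.5 and 19.8 CPM in siCtrl replicates 1, 2 and 3 and at 13.5, 14.7 and 16.0 CPM in siAldoa replicates 1, 2 and 3, so every siAldoa library was below every siCtrl library, at 74.5% of the control (log2 fold change -0.40, standard error 0.14, limma adjusted p = 0.039). Ccnb1 had 101, 94.9 and 98.4 CPM in the siCtrl libraries and 100.1, 93.8 and 93.7 CPM in the siAldoa libraries, and these values overlapped (log2 fold change -0.03, standard error 0.06, limma adjusted p = 0.78, 95% interval -0.16 to 0.09). The ratio of Ccnb2 to Ccnb1 was 0.188, 0.216 and 0.202 in siCtrl and 0.135, 0.157 and 0.170 in siAldoa, without overlap, and that of Ccna2 to Ccnb1 was 1.83, 1.75 and 1.72 in siCtrl and 1.54, 1.49 and 1.59 in siAldoa. Ratios are given as a description, since an exact permutation test of 3 against 3 libraries cannot go below p = 0.1. Ccnb1 was the more abundant, with 39.0 CPM per kb of its principal transcript over all libraries, against 11.3 CPM per kb for Ccnb2. Processed pseudogenes 94.4% to 99.2% identical to Ccnb1 (Gm5593, Gm12856 and Gm4870) had 46.1, 30.05 and 5.37 CPM in this table, so reads between them are uncertain. Ccnb1 and these copies together had 186, 173 and 189 CPM in siCtrl and 181, 173 and 169 CPM in siAldoa, which overlap as well.

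Foxm1, the forkhead factor of the late programme, was at 122 ± 7.59 CPM in siCtrl and 122 ± 0.775 CPM in siAldoa (SD, n = 3, log2 fold change 0.0053, 95% interval -0.11 to 0.12). The phosphatase genes Cdc25b and Cdc25c, whose products remove the inhibitory phosphates of CDK1, did not pass, with log2 fold change -0.12, limma adjusted p = 0.23 and log2 fold change -0.27, limma adjusted p = 0.076, although all siAldoa libraries lay below all siCtrl libraries for both. Of the 4 calls in this group, that of Ccna2 held whichever single library was left out (adjusted p 0.012 to 0.049). Cdk1 passed only without siAldoa replicate 2 (range 0.015 to 0.12), Ccnb2 only without siAldoa replicate 3 (0.048 to 0.12), and Cks2 was lost without siCtrl replicate 1, siCtrl replicate 2 or siAldoa replicate 3 (0.03 to 0.13).

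**Figure D4:**
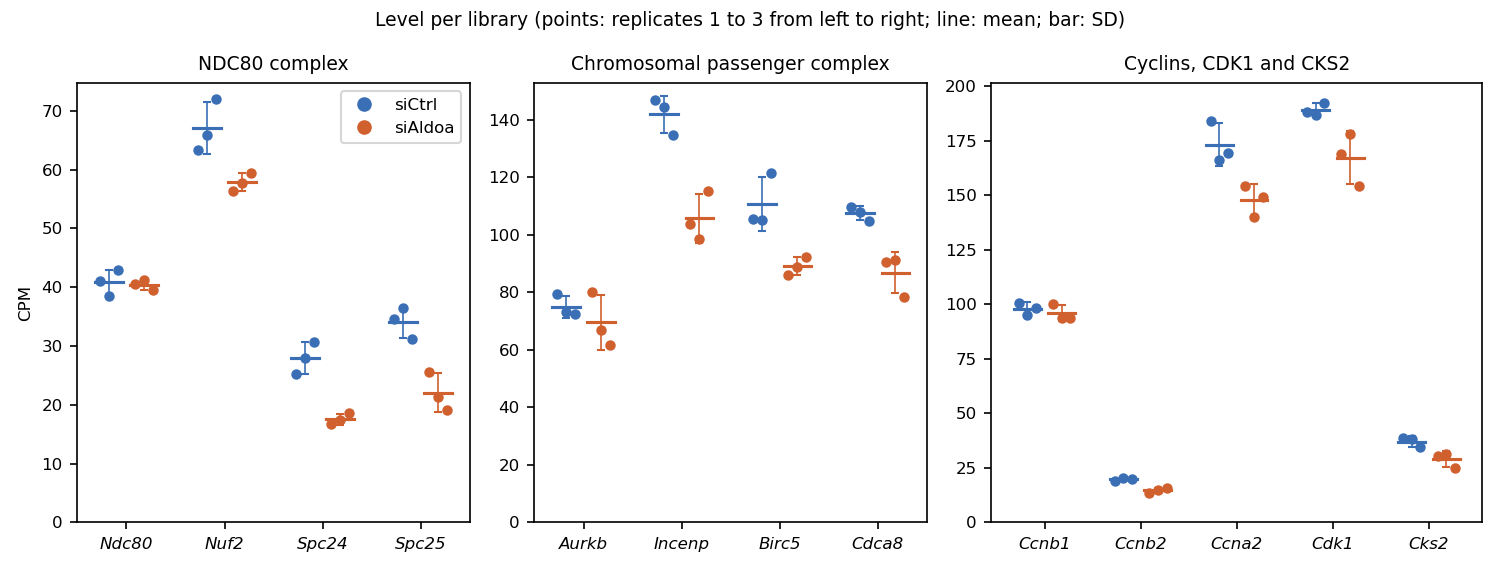
CPM per library (y axis, from 0) of the NDC80 complex, the chromosomal passenger complex and the cyclin, CDK1 and CKS2 genes. Points are replicates 1 to 3 from left to right, horizontal lines the mean and bars the SD (n = 3), in siCtrl (blue) and siAldoa (orange). In each panel 1 gene overlaps between groups (Ndc80, Aurkb and Ccnb1) while the others lie lower in siAldoa.

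None of the 4 mitotic kinase genes passed the test, and their groups overlapped in every case. Nek2, whose kinase separates the centrosomes, had 106, 111 and 108 CPM in the siCtrl libraries and 125, 123 and 107 CPM in the siAldoa libraries (log2 fold change 0.12, standard error 0.063, limma adjusted p = 0.2). Ttk, the checkpoint kinase MPS1, had 36.4, 29.3 and 34.9 CPM in the siCtrl libraries and 29.1, 36.6 and 34.6 CPM in the siAldoa libraries (log2 fold change -0.0045, 95% interval -0.23 to 0.22). Plk1 and Aurka, the polo-like kinase and the aurora kinase of the spindle poles, had 102% and 103% of the control, with 95% intervals of the log2 fold change of -0.15 to 0.23 and -0.09 to 0.17. The processed pseudogene Plk-ps1, 93.5% identical to Plk1 over 1813 bases, had 29.0 CPM, and with it the sum was 101% of the control.

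The 3 spindle checkpoint genes all had negative log2 fold changes without passing. Bub1b was at 109, 94.9 and 99.5 CPM in siCtrl replicates 1, 2 and 3 and at 92.0, 85.0 and 90.1 CPM in siAldoa replicates 1, 2 and 3, so the groups did not overlap, and BUBR1, its product, is part of the mitotic checkpoint complex (log2 fold change -0.18, standard error 0.065, limma adjusted p = 0.052). Bub1 had 88.2, 87.3 and 88.4 CPM in siCtrl and 83.7, 84.5 and 83.8 CPM in siAldoa, a narrow difference without overlap that limma, which borrows the spread of all genes, did not call (log2 fold change -0.07, standard error 0.061, limma adjusted p = 0.51). Mad2l1, which encodes the checkpoint protein MAD2, had 91.8% of the control (log2 fold change -0.12, limma adjusted p = 0.24). Its processed pseudogene Gm42430, 95.4% identical over 454 bases, had 15.9 CPM (log2 fold change 0.35, limma adjusted p = 0.12). Mad2l1 and Gm42430 together had 97.2% of the control.

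The chromosomal passenger complex, which corrects wrong attachments of kinetochores and guides cytokinesis, was lower in 3 of its 4 subunits (median log2 fold change -0.31). Genes in the mitotic genes' range of mean CPM were lower in 17.5% and higher in 17.0%. Incenp (ENSMUSG00000024660) lies on chromosome 19 of GRCm38 from 9872296 to 9899551 on the minus strand. Incenp was at 147, 144 and 135 CPM in siCtrl replicates 1, 2 and 3 and at 104, 98.6 and 115 CPM in siAldoa replicates 1, 2 and 3, a fall from 142 ± 6.44 to 106 ± 8.51 CPM (SD, n = 3) for the scaffold of the complex (log2 fold change -0.42, standard error 0.062, limma adjusted p = 1.8e-05). Birc5, which encodes survivin, had 105, 105 and 121 CPM in the siCtrl libraries and 86.1, 89.0 and 92.4 CPM in the siAldoa libraries, without overlap (log2 fold change -0.31, standard error 0.065, limma adjusted p = 0.0012). Cdca8, which encodes borealin, had 109.6, 108 and 105 CPM in the siCtrl libraries and 90.7, 91.4 and 78.6 CPM in the siAldoa libraries, where siAldoa replicate 3 was the lowest (log2 fold change -0.31, standard error 0.065, limma adjusted p = 0.0013). The kinase subunit Aurkb had 79.4, 73.0 and 72.5 CPM in the siCtrl libraries and 80.2, 66.8 and 61.8 CPM in the siAldoa libraries, and siAldoa replicate 1 was above all siCtrl libraries (log2 fold change -0.11, standard error 0.082, limma adjusted p = 0.38, 95% interval -0.28 to 0.06).

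All 3 calls held whichever single library was left out, and Incenp was the only mitotic gene that stayed past the threshold in each of the 18 alternatives tried. The ratio of Cdca8 to Aurkb was 1.38, 1.48 and 1.45 in siCtrl and 1.13, 1.37 and 1.27 in siAldoa, all siAldoa libraries being lower. The ratios of Incenp and Birc5 to Aurkb overlapped between groups (1.85, 1.98 and 1.86 in siCtrl and 1.29, 1.48 and 1.86 in siAldoa for Incenp), so a difference of these subunits from Aurkb was not shown. Exons of Cdca8 share 232 bases with 9930104L06Rik on the other strand.

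Kinetochore and centromere genes held the largest decreases among the mitotic genes, with 4 of 7 lower, 0 higher and a median log2 fold change of -0.21. The shares over genes in the mitotic genes' range of mean CPM were 17.5% lower and 17.0% higher. The NDC80 complex is the main link of the kinetochore to microtubules. It joins NDC80 and NUF2, which bind the microtubule, to SPC24 and SPC25, which face the chromosome. Spc24 (ENSMUSG00000074476) lies on chromosome 9 of GRCm38 from 21755442 to 21760303 on the minus strand. Spc24 was at 25.2, 27.9 and 30.7 CPM in siCtrl replicates 1, 2 and 3 and at 16.7, 17.4 and 18.6 CPM in siAldoa replicates 1, 2 and 3, or 62.9% of the control (log2 fold change -0.64, standard error 0.12, limma adjusted p = 4.5e-04). Spc25 was at 34.5, 36.4 and 31.2 CPM in siCtrl replicates 1, 2 and 3 and at 25.6, 21.4 and 19.1 CPM in siAldoa replicates 1, 2 and 3, or 64.8% (log2 fold change -0.61, standard error 0.12, limma adjusted p = 4.9e-04). Nuf2 had 63.3, 65.9 and 72.0 CPM in siCtrl and 56.4, 57.7 and 59.4 CPM in siAldoa, which is 86.3% (log2 fold change -0.21, standard error 0.074, limma adjusted p = 0.048). The groups were separate for these 3 genes and overlapped for Ndc80, with 41.1, 38.6 and 42.9 CPM and 40.5, 41.2 and 39.5 CPM (log2 fold change -0.01, standard error 0.087, limma adjusted p = 0.94, 95% interval -0.19 to 0.17).

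Within single libraries, Spc24 relative to Ndc80 was 0.613, 0.723 and 0.716 in siCtrl and 0.413, 0.422 and 0.470 in siAldoa. Spc25 relative to Ndc80 was 0.840, 0.943 and 0.728 in siCtrl and 0.633, 0.519 and 0.483 in siAldoa, and both ratios were lower in every siAldoa library, whereas Spc25 relative to Nuf2 overlapped between groups. Spc24 had 16.7, Ndc80 18.5, Spc25 23.5 and Nuf2 26.0 CPM per kb of principal transcript over all libraries. The pseudogene 2700099C18Rik, 92.7% identical to Ndc80 over 763 bases, had 9.74 CPM, so some reads of Ndc80 are uncertain. Its own log2 fold change was -0.61 (limma adjusted p = 0.08). Ndc80 and this copy were not summed, so the ratios to Ndc80 carry the same uncertainty.

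Cenpa encodes the histone H3 variant of the centromere. Cenpa was at 109, 103 and 117 CPM in siCtrl replicates 1, 2 and 3 and at 76.9, 85.5 and 80.6 CPM in siAldoa replicates 1, 2 and 3, without overlap (log2 fold change -0.43, standard error 0.065, limma adjusted p = 3.0e-05). Cenpf, which encodes a large protein of the outer kinetochore, had 92.9% of the control with all siAldoa libraries lower (log2 fold change -0.11, standard error 0.049, limma adjusted p = 0.14), and Cenpe, a kinesin of the kinetochore, had 106% with overlap (log2 fold change 0.08, standard error 0.052, limma adjusted p = 0.31). The calls of Spc24, Spc25 and Cenpa held whichever single library was left out (adjusted p up to 0.011, 0.013 and 0.0025). That of Nuf2 held only without siCtrl replicate 1 (range 0.046 to 0.2).

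Kinesins and spindle microtubule proteins went in both directions, with 1 of 8 lower (12.5%), 1 higher (12.5%) and a median of -0.030. Over all genes in the mitotic genes' range of mean CPM, 17.5% were lower and 17.0% higher. Hmmr, which encodes the spindle-associated hyaluronan receptor RHAMM, had 151, 159 and 164 CPM in the siCtrl libraries and 176, 177 and 177 CPM in the siAldoa libraries. It rose to 112% of the control in all siAldoa libraries (log2 fold change 0.16, standard error 0.05, limma adjusted p = 0.02), and it passed only without siCtrl replicate 3 when single libraries were left out (range 0.022 to 0.1). Stretches of up to 390 bases of Hmmr transcripts are at least 90% identical to 9 other genes of the table, among them Colec12 (log2 fold change 0.44, limma adjusted p = 8.3e-07) and Mcoln1 (0.64, adjusted p = 1.6e-05), and their part in the value was not tested. Kif20b, which encodes a kinesin of the late mitotic spindle, had 119.7, 127 and 126 CPM in the siCtrl libraries and 110.1, 114 and 103 CPM in the siAldoa libraries (log2 fold change -0.19, standard error 0.058, limma adjusted p = 0.023), a call lost without siCtrl replicate 2, siCtrl replicate 3, siAldoa replicate 1 or siAldoa replicate 3 (range 0.029 to 0.12).

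The other 6 genes overlapped between groups. Kif22, which encodes a chromosome-bound kinesin, had the lowest log2 fold change of the group and a wide spread, with 25.5, 24.6 and 30.4 CPM in the siCtrl libraries and 21.05, 27.3 and 19.9 CPM in the siAldoa libraries (log2 fold change -0.24, standard error 0.13, limma adjusted p = 0.23). Kif11, the kinesin that pushes the spindle poles apart, Kif4 and Nusap1 had 102%, 103% and 103% of the control. Kif2c and Tpx2, the latter an activator of aurora A, had 93.2% and 93.7%.

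Regulators of anaphase were lower in 4 of 6 genes and higher in 0 (median log2 fold change -0.20). Beside this, 17.5% of genes in the mitotic genes' range of mean CPM were lower and 17.0% higher. Cdc20, the APC/C activator of mitosis, had 186, 176 and 179.6 CPM in the siCtrl libraries and 149.8, 163 and 159 CPM in the siAldoa libraries (log2 fold change -0.20, standard error 0.051, limma adjusted p = 0.0056). Fzr1, the activator CDH1 that follows it at mitotic exit and in G1, had 57.8, 59.4 and 63.5 CPM and 63.1, 71.1 and 69.1 CPM, with 1 siAldoa library inside the siCtrl range (log2 fold change 0.17, standard error 0.074, limma adjusted p = 0.12). Cdc20 fell without overlap, and Fzr1 had the highest log2 fold change of all 52 genes but did not pass. The processed pseudogene Gm7856, 93.7% identical to Cdc20, had 76.3 CPM and was itself called lower (log2 fold change -0.34, limma adjusted p = 0.0014). Cdc20 and Gm7856 together had 275, 264 and 258 CPM in siCtrl and 218, 225 and 231 CPM in siAldoa, or 84.4% of the control.

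Pttg1, which encodes securin, had 46.0, 41.9 and 47.4 CPM in the siCtrl libraries and 36.4, 36.3 and 38.2 CPM in the siAldoa libraries (log2 fold change -0.28, standard error 0.088, limma adjusted p = 0.027). Espl1, which encodes separase, the protease that securin holds back, had 91.8, 96.3 and 86.8 CPM in the siCtrl libraries and 75.3, 84.7 and 80.6 CPM in the siAldoa libraries (log2 fold change -0.19, standard error 0.067, limma adjusted p = 0.046). Cdca3, whose product takes part in the destruction of the mitotic inhibitor WEE1, had 43.3, 44.0 and 53.7 CPM in the siCtrl libraries and 35.1, 33.9 and 36.9 CPM in the siAldoa libraries (log2 fold change -0.40, standard error 0.095, limma adjusted p = 0.0038). The groups were separate for these 3 genes. Ube2c, the ubiquitin-conjugating partner of the APC/C, had 90.6% of the control, with siAldoa replicate 2 inside the siCtrl range (log2 fold change -0.14, limma adjusted p = 0.12). Cdc20 and Cdca3 held whichever single library was left out (adjusted p up to 0.049 and 0.048). Pttg1 held only without siCtrl replicate 2 (range 0.026 to 0.11), and Espl1 only without siCtrl replicate 3 or siAldoa replicate 2 (0.049 to 0.2).

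In cytokinesis, 2 of 5 genes were lower and 0 higher (median log2 fold change -0.11). Within the mitotic genes' range of mean CPM, 17.5% of all genes were lower and 17.0% higher. The 2 cytokinesis genes called lower are the partners of centralspindlin, the complex that bundles microtubules of the spindle midzone. Racgap1 had 255, 248 and 251 CPM in the siCtrl libraries and 226, 227 and 231 CPM in the siAldoa libraries (log2 fold change -0.14, standard error 0.043, limma adjusted p = 0.024). Kif23 had 89.0, 91.9 and 93.7 CPM in the siCtrl libraries and 86.9, 75.6 and 74.6 CPM in the siAldoa libraries (log2 fold change -0.21, standard error 0.068, limma adjusted p = 0.028), where siAldoa replicate 1 lay close to the siCtrl libraries. Anln, which encodes an anchor of the contractile ring, had 332, 324 and 350.0 CPM in the siCtrl libraries and 339, 342 and 327 CPM in the siAldoa libraries, which overlap (log2 fold change 0.0024, 95% interval -0.08 to 0.09). Ect2, whose product centralspindlin recruits, and Kif20a had 99.04% and 92.6% of the control. Exons of Kif20a share 1271 bases with Cdc23 on the other strand, and Cdc23 was called lower. Kif23 passed only without siAldoa replicate 1 (range 0.012 to 0.15), and Racgap1 was lost without siCtrl replicate 1, siCtrl replicate 3, siAldoa replicate 1 or siAldoa replicate 2 (0.039 to 0.083).

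Of the genes of condensin and mitotic chromosomes, 1 of 7 was lower (14.3%) and 0 higher (median log2 fold change -0.12). In the mitotic genes' range of mean CPM, 17.5% of all genes were lower. Smc2 was at 193, 198 and 214 CPM in siCtrl replicates 1, 2 and 3 and at 179, 158 and 172 CPM in siAldoa replicates 1, 2 and 3, a fall to 84.1% for the ATPase shared by both condensins (log2 fold change -0.25, standard error 0.054, limma adjusted p = 0.0016), which held whichever single library was left out (adjusted p up to 0.033). Its partner Smc4 had 367, 395 and 387 CPM in the siCtrl libraries and 365, 355 and 341 CPM in the siAldoa libraries, separate but just outside the threshold (log2 fold change -0.12, standard error 0.042, limma adjusted p = 0.051). The ratio of Smc2 to Smc4 overlapped between groups (0.527, 0.502 and 0.553 in siCtrl and 0.492, 0.445 and 0.505 in siAldoa), so the 2 subunits were not shown to differ. Top2a, topoisomerase II alpha, which untangles sister chromatids, had 436, 442 and 452 CPM in siCtrl and 427, 418 and 449.6 CPM in siAldoa (log2 fold change -0.04, standard error 0.039, limma adjusted p = 0.55), and the groups overlapped. Mki67, which encodes the proliferation marker Ki-67, was at 94.8% of the control with separate groups (log2 fold change -0.08, standard error 0.04, limma adjusted p = 0.2). The condensin I subunits Ncapd2, Ncapg and Ncaph had 91.0%, 92.3% and 94.7% of the control and did not pass.

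Among the 52 genes, calls for lower expression were more frequent for short transcripts, a property examined after the values were seen. Of the 14 mitotic genes whose principal transcript in the GENCODE annotation is under 2 kb, 10 were called lower and 0 higher, with a median log2 fold change of -0.31. Of the 38 genes from 2 kb, 9 were lower and 1 higher, with a median of -0.096. Over all genes with a principal transcript, 12.6% of those under 2 kb and 10.6% of those from 2 kb were called lower, and in the same range of mean CPM 23.2% and 15.3%. Calls for higher expression also differed by length, with 6.72% under 2 kb and 15.0% from 2 kb over all these genes. In the same range of mean CPM the shares called higher were 9.77% and 20.9%. Of the other mitotic genes in the further lists, 9 of 28 under 2 kb (32.1%) and 24 of 90 from 2 kb (26.7%) were lower, and of the DNA replication genes 7 of 11 (63.6%) and 20 of 32 (62.5%). Across the 52 genes Spearman's rank correlation of length and log2 fold change was 0.46. It was 0.32 over 118 other mitotic genes, 0.22 over 7569 genes of the same range of mean CPM and 0.14 over 13628 genes with a principal transcript. Among 43 DNA replication genes the correlation was -0.24. These correlations are across genes of the same 6 libraries, given as a description, and the part of length in the lower values was not tested.

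**Figure D5:**
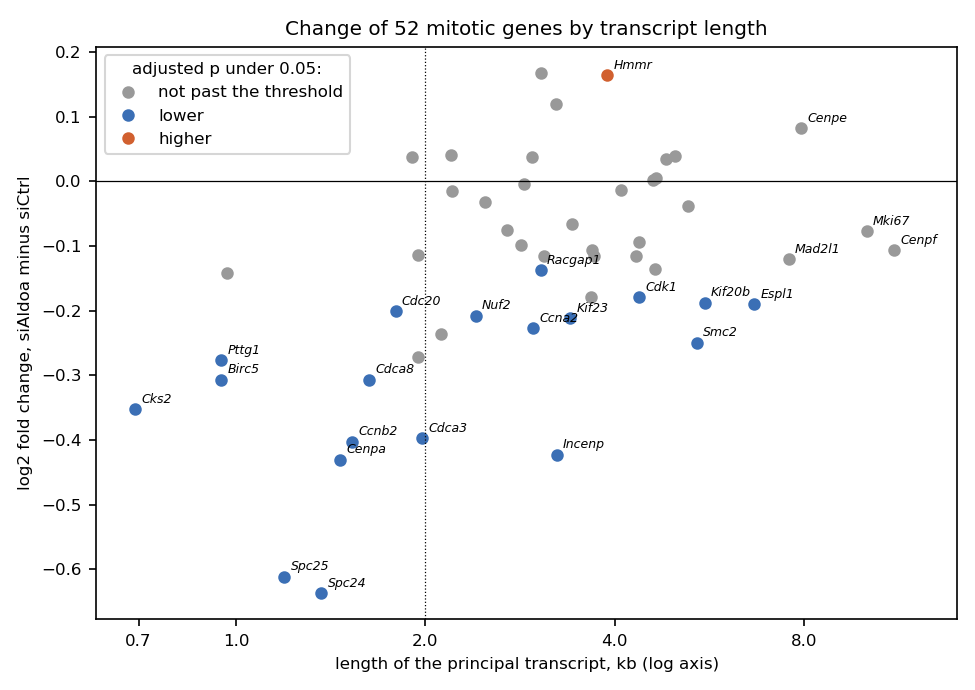
Log2 fold change (y axis) against the length of the principal transcript in kb (x axis, log scale) for the 52 mitotic genes, coloured by whether limma called them lower (blue), higher (orange) or neither (grey). The dotted line marks 2 kb: to its left 10 of 14 genes are called lower, to its right 9 of 38 are lower and 1 is higher.

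Per length of transcript, the order of the mitotic genes by mean level over all libraries began with Birc5 (106 CPM per kb), Ube2c (102), Cdc20 (94.2), Smc4 (85.3) and Top2a (83.8). Among the lowest were Mad2l1 (10.6), whose annotated principal transcript is long, Ccnb2 (11.3), Kif22 (11.7) and Ttk (11.7). Level per kb and log2 fold change had a rank correlation of -0.051 over the 52 genes. The genes called lower or higher spanned the range from Ccnb2 to Birc5.

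Other genes of mitosis, from 5 further lists with 127 symbols, were called lower in 33 of 118 measured genes (28.0%) and higher in 7 (5.93%), with a median log2 fold change of -0.082. Over all genes the shares were 10.0% and 10.4%, and in the mitotic genes' range of mean CPM 17.5% and 17.0%. Regulators of mitotic entry were lower in 8 of 20 and higher in 0. Arpp19, whose phosphorylated product inhibits the phosphatase PP2A-B55 at entry, fell to 70.3% (log2 fold change -0.50, standard error 0.073, limma adjusted p = 1.7e-05). Mybl2, which encodes B-MYB, had 47.4, 42.9 and 45.2 CPM in the siCtrl libraries and 30.2, 34.7 and 31.4 CPM in the siAldoa libraries (log2 fold change -0.48, standard error 0.092, limma adjusted p = 4.6e-04). Foxm1, described above, and Mybl2 had different values, and the difference between them was not tested. Of the remaining APC/C subunits and inhibitors, 3 of 16 were lower (18.75%, near the 17.5%) and 1 higher. Fbxo5, the inhibitor EMI1, had 77.4% and the subunit gene Cdc23 80.1% of the control (limma adjusted p = 0.0017 and 0.0048). The subunit gene Cdc27 had 112% (limma adjusted p = 0.021).

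Further kinetochore and checkpoint genes were lower in 9 of 31 and higher in 0. Pmf1 was at 56.4, 59.1 and 62.4 CPM in siCtrl replicates 1, 2 and 3 and at 40.7, 30.5 and 35.6 CPM in siAldoa replicates 1, 2 and 3, a subunit gene of the MIS12 complex that NDC80 binds, at 60.03% of the control (log2 fold change -0.73, standard error 0.096, limma adjusted p = 4.3e-06). Cenpu, of the inner kinetochore, had 57.9% at a low level of 14.3 CPM in siCtrl (log2 fold change -0.73, standard error 0.17, limma adjusted p = 0.0037). Further spindle and cytokinesis genes were lower in 7 of 33 (21.2%) and higher in 3 (9.09%), against 17.5% and 17.0% of genes in the mitotic genes' range of mean CPM. Haus8, of the augmin complex, had 75.4% (log2 fold change -0.38, limma adjusted p = 0.024), and Sapcd2 had 64.1% although siAldoa replicate 2 lay inside the siCtrl range (log2 fold change -0.61, limma adjusted p = 0.0097). Kif3b, a kinesin subunit of transport along microtubules, and Ndel1, a regulator of dynein, rose to 128% and 117% (limma adjusted p = 5.4e-04 and 0.022).

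Cohesin and the remaining condensin genes were lower in 6 of 18 (33.3%) and higher in 3 (16.7%). Among genes in the mitotic genes' range of mean CPM the shares were 17.5% and 17.0%, so the share called higher was near that of these genes. Smc3, of the cohesin ring, had 298, 304 and 287 CPM in siCtrl and 227, 242 and 261 CPM in siAldoa (log2 fold change -0.29, standard error 0.049, limma adjusted p = 1.3e-04), and Sgol1, which encodes the cohesin protector shugoshin 1, fell to 80.5% (log2 fold change -0.31, limma adjusted p = 0.01). Nipbl and Mau2, the 2 partners of the cohesin loader, rose to 118% and 121% with all siAldoa libraries above all siCtrl libraries (limma adjusted p = 8.3e-04 and 0.0011). These genes were named as the lowest and the highest called of their list, so their opposite signs follow from that choice.

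Set beside the mitotic genes, DNA replication genes, which are expressed earlier in the cycle, were called lower in 27 of 43 (62.8%) and higher in 0, with a median log2 fold change of -0.34 against -0.12. All genes had shares of 10.0% lower and 10.4% higher, and those in the mitotic genes' range of mean CPM 17.5% and 17.0%. Both lists were measured in the same libraries and the difference between them was not tested. The lowest were Cdc6, which loads the replicative helicase, at 55.7% of the control (log2 fold change -0.81, limma adjusted p = 5.1e-06), and Rrm2, a subunit of ribonucleotide reductase, at 57.0% (log2 fold change -0.80, limma adjusted p = 7.1e-10). The lowest mitotic gene of the 52, Spc24, was at 62.9%.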

How the data were processed

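Poly(A) RNA of NIH/3T3 cells was sequenced 48 h after transfection, in 3 siAldoa and 3 siCtrl libraries. According to the methods and the submitters' processing notes, the authors aligned reads to mm10 with Bowtie2 (version 2.2.7), drew equal numbers of reads per sample, counted these per gene and removed genes with fewer than 12 reads. The deposited values are CPM of an effective library size. The table still held 1834 genes under 12 reads and 3 at 0 reads, and 200 of its 18001 rows had no symbol. A second deposited table with the authors' log2 fold changes, mean levels and p-values was not used. The annotation, the use of strand and the handling of reads with several positions in counting are not given in the sources used here.

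Whole reads were recovered from the CPM steps (100% of values within 0.01 of a whole number). Totals lay between 3692341 and 3771129 reads without molecular identifiers, so their precision covers counting error only. The test was that of limma 3.58.1 in R 4.3.3, two-sided, applied to log2(CPM + 1) with its trend option and with Benjamini-Hochberg adjustment over all genes. This scale understates changes of genes with few reads. On simulated data limma recovered 93.5% of 200 genes changed by a log2 fold change of 1 among 18001. The changed genes were drawn without those of few reads, and smaller changes, such as those of the mitotic genes, were not simulated. The share therefore does not tell how many changes of that size would be missed. edgeR (version 4.0.16) and DESeq2 (version 1.42.0) on the recovered reads were alternatives, as were a pseudocount of 0.1, a filter at the lower quartile of mean CPM, quantile normalization, scaling to total reads, no mean-variance trend, the replicate block and libraries left out. Replicates 1 and 2 of a group differed only slightly beyond sampling noise (chi-square per degree of freedom 1.12 in siCtrl and 1.11 in siAldoa, an excess not tested). They were kept as separate samples. The paper calls the replicates biological.

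The mitotic genes and all other lists were chosen with earlier results of these data known, so no test was made over a list. Named were all mitotic genes with an adjusted p under 0.05, the extremes of each role group by log2 fold change and its highest CPM, up to 2 of each direction in the other lists, and Aldoa. The remaining members are given to account for the list and were not picked by value. Lengths are those of APPRIS principal transcripts in GENCODE (GRCm38), where 17932 of 18001 identifiers had an entry. Copies were searched with blastn (version 2.17.0) at 90% identity over at least 200 bases, of which 15 of the 52 genes had at least 1 in the table, and exons of 10 overlapped another gene of the table on the other strand.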

Additional observations from a re-analysis of the deposited data

How the results depend on the processing

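Counts of mitotic genes called lower were 19 as reported, 13 with scaling to total reads, 17 with quantile normalization or a pseudocount of 0.1, 5 when limma used no trend and 10 with DESeq2. They were 21 with the filter at the lower quartile of mean CPM and 20 with edgeR. Without single libraries or replicate numbers they ranged from 1 to 14, the 1 and the 2 coming from fits of 2 against 2 libraries without replicate 3 or replicate 2. The count of genes called higher was 1, and 0 when no trend was used, with DESeq2 and with replicates 1 and 2 averaged. With libraries left out it ranged from 0 to 1 and was 0 in 7 of 9 fits. Nek2, not called in the main fit, passed as higher without siAldoa replicate 3 (limma adjusted p = 0.043). Bub1b, not called either, passed as lower with the filter (limma adjusted p = 0.035) and without siCtrl replicate 2 (limma adjusted p = 0.044). It also passed with edgeR (edgeR adjusted p = 0.041). The median log2 fold change of the 52 genes stayed negative throughout. It was -0.093 with scaling to total reads, -0.13 with replicates 1 and 2 averaged, and -0.14 to -0.11 with libraries left out. Over all genes, 616 were lower and 824 higher with no trend, 1117 and 1066 with DESeq2, and 520 to 1371 lower and 494 to 1464 higher with libraries left out. The causes were not tested.

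Whether the replicate numbers mark paired samples was not settled. Over 9387 genes, deviations from the group mean had correlations of 0.034, 0.021 and 0.16 for libraries of the same number (1, 2 and 3). The value of replicate 3 was the highest of all pairs, while siCtrl replicate 2 with siAldoa replicate 1 had 0.094. Replicate 3 of a group with replicates 1 and 2 of the other group had -0.11 to -0.059. With the replicate block, 15 mitotic genes were lower and 1 higher, and 1559 and 1611 of all genes. Ccnb2, Espl1, Kif23 and Nuf2 did not pass in that fit (limma adjusted p = 0.058, 0.062, 0.062 and 0.062).

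Signs turned only in genes that were not called. Top2a was at 0.064 with quantile normalization, Ttk at 0.018 with scaling to total reads and Anln at -0.023 with replicates 1 and 2 averaged. With libraries left out, Anln ranged from -0.034 to 0.054, Foxm1 from -0.023 to 0.056 and Ttk from -0.16 to 0.15. With 50 to 948 reads per library for the called genes, standard errors of the log2 fold change lay between 0.039 and 0.14 over the 52 genes.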
